A study of Caenorhabditis elegans with 6 samples.

Results

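Translation initiation and elongation factors were followed in RNA from dissected hermaphrodite germlines of C. elegans. They were taken as the protein-coding genes whose WormBase symbol starts with eif-, ife-, iff-, ifg-, eef- or eft-, matched by sequence name to the count tables. This gave 39 genes among 45461 gene rows: 25 named eif-, 5 named ife-, 2 named iff-, 1 named ifg-, 6 named eef- and 0 named eft-. Of these, 38 had enough counts to be tested, and the other one was eif-1 (T27F7.3), with 0 or 1 count in each library.

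The libraries fell into 3 groups of 2. Every germline analysed was of strain HBR1280 by genotype and carried oxTi75, a transgene in which the promoter of eft-3 drives GFP::H2B, with the 3'UTR of tbb-2 and unc-18(+). Control germlines came from HBR1280 hermaphrodites and inherited chromosomes from both parents. “Red-head” F1 germlines inherited sperm chromosomes only. Their fathers were HBR1280 males and their mothers were HBR1281 hermaphrodites, which carry oxTi411 on chromosome III (the eft-3 promoter driving TdTomato::H2B, with the 3'UTR of unc-54 and Cbr-unc-119(+)) and ddIs32 (a synthetic yfp::gpr-1). In embryos of these mothers, excess GPR-1 can pull the sperm and oocyte genomes apart at the first division. The last group held germlines of the F2 progeny of “red-head” worms. All worms were day 1 adults grown at 24 °C on OP50 bacteria, and each library pooled distal gonad arms cut at the gonad bend, so values describe pools and not single animals. The name eft-3 is an older one for eef-1A.1, so all 3 groups carried a transgene under the promoter of 1 of the genes described here.

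Translation starts when the small ribosomal subunit, held by the factors eIF3, eIF1 and eIF1A, receives initiator tRNA from eIF2 bound to GTP and is brought to the mRNA cap by eIF4E and its scaffold eIF4G. The exchange factor eIF2B recharges eIF2 with GTP, and eIF6 keeps the large subunit from joining early. During elongation eEF1A delivers aminoacyl-tRNAs, the eEF1B complex recharges eEF1A, eEF2 moves the ribosome along and eIF5A helps it through stalling stretches. In the worm several of these factors have a germline and a somatic copy, and regulation of maternal mRNAs in the gonad acts in part through the cap-binding step.

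Counts on genes totaled 2721055 to 11310273 per library, of which the 39 genes took 3.31% to 4.09%. Replicates of each group differed by more than sampling noise. All 20 germline markers were among the 8117 genes tested, with a summed level, in counts-per-million (CPM), of 13517 to 16380. These markers had median log2 fold changes of -0.10 in “red-head” against control and 0.07 in offspring against control. In “red-head” against offspring it was -0.09. Intestine markers (11 of 16 tested) summed to 519 and 359 CPM in the controls, 3274 and 6297 in “red-head” libraries and 1364 and 209 in offspring. For 11 of 11 both “red-head” values exceeded both control values, against 18.4% of all genes. Sperm markers (12 of 20 tested) summed to 55.7 and 26.5, 7.89 and 9.29, and 30.996 and 12.1 CPM in the same order. For 10 of 12 both “red-head” values lay below both control values, against 19.6% of all genes. Median log2 fold changes of “red-head” against control were 0.79 for 13 tested muscle markers and 1.60 for 4 hypodermis markers. They were 0.04 for 3 neuron markers and 0.001 for 4 gonadal sheath markers. The part of these other tissues in the values below was not tested. In pooled tissue, fewer cells of a type and less RNA per cell cannot be told apart. The study calls the 2 libraries of a group biological replicates, but nothing in the labels says whether they came from separate cultures. The p-values therefore measure the spread between these libraries within groups, estimated over all 3 groups with information shared across genes.

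The factors spanned a 3338-fold range of RNA levels in control germlines when counts were scaled per kilobase of the longest transcript (CPM per kilobase, written RPKM). The median of the 38 was 156 RPKM, compared with 35.5 RPKM over the 7594 protein-coding genes tested. By control level, 33 of the 38 lay above that median and 25 lay in the top 10% of genes. The 5 below it were eef-1A.2, ife-5, ife-2, iff-2 and ife-4, of which 3 (eef-1A.2, ife-2 and ife-4) are the X-linked members. The 39 genes lie on chromosomes I (12), II (12), III (6), IV (2), V (4) and X (3).

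**Figure D1:**
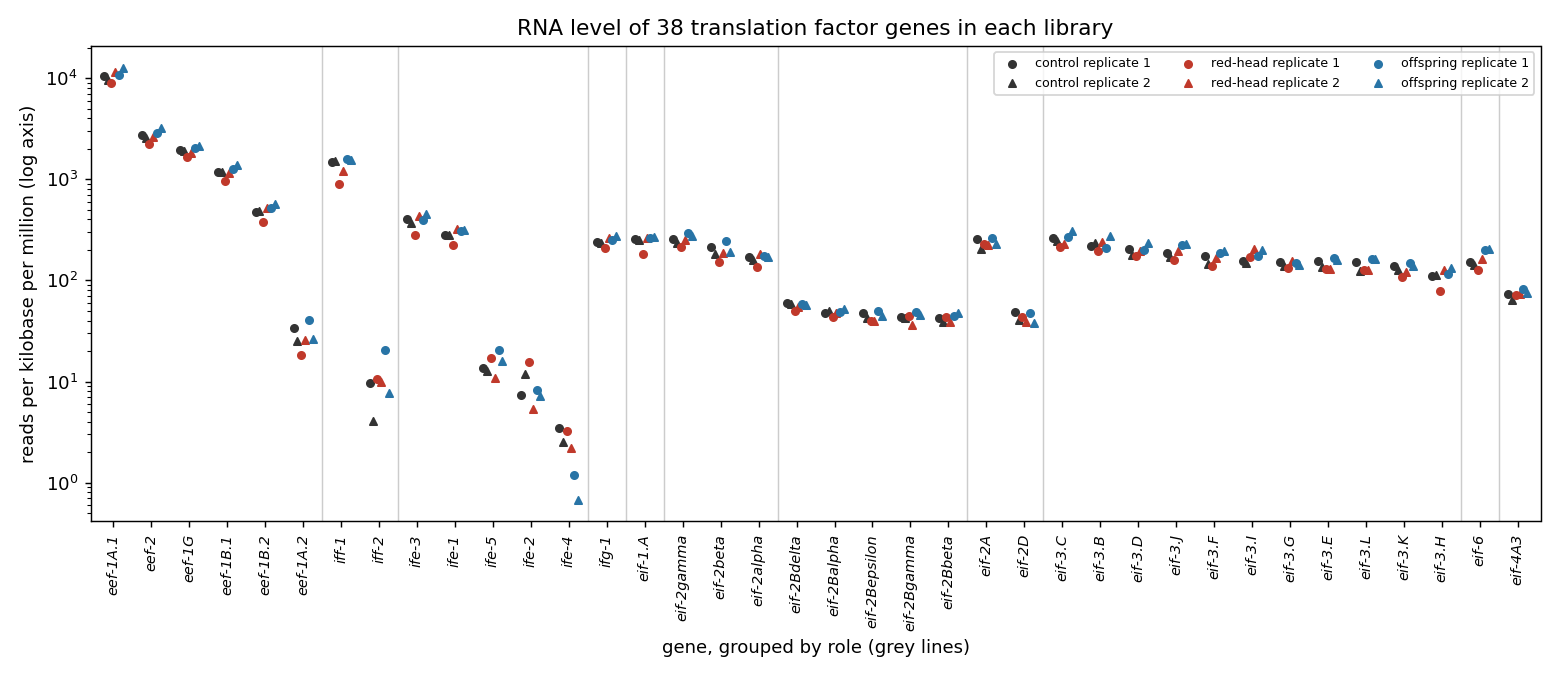
RNA level of each of the 38 tested genes in each of the 6 libraries, in RPKM on a log axis, with genes grouped by role. Each symbol is 1 library. Apart from eef-1A.2, the elongation factors stand highest together with iff-1, with eef-1A.1 at 10044 in control, the subunits of eIF2 and eIF3 form a band between 111 and 252 in control, and the subunits of eIF2B lie below them.

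The elongation factors other than eef-1A.2, with iff-1, were the most abundant of these RNAs. The gene eef-1A.1 (F31E3.5, chromosome III), which encodes eEF1A, had 10044 ± 646 RPKM (SD, n = 2) in control and ranked 1 among the 7594 protein-coding genes. The translocase gene eef-2 (F25H5.4, chromosome I) followed with 2622 ± 129 RPKM (rank 50), and eef-1G (F17C11.9, chromosome V), for the gamma subunit of eEF1B, with 1922 ± 25.4 RPKM (rank 84). These 3 ranked within the top 100 genes. The eEF1B exchange subunits eef-1B.1 (F54H12.6, chromosome III) and eef-1B.2 (Y41E3.10, chromosome IV) had 1191 and 482 RPKM in control, and their ratio stayed between 2.20 and 2.56 in the 6 libraries. When lengths were summed over all exons, eef-1B.2 had 332 RPKM.

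The order of paralogs was the same in every library for the families with a dominant copy. The level of eef-1A.1 exceeded that of its X-linked copy eef-1A.2 (R03G5.1) by 266-fold to 491-fold. These 2 genes encode near-identical proteins. The deposited counts list 0 reads as not uniquely aligned in each library. How reads that align to several places were handled before counting is not given in the sources used here. The level of eef-1A.2 in particular is therefore uncertain. For eIF5A, iff-1 (T05G5.10, chromosome III), the copy that worm germ cells need, had 1492 ± 21.8 RPKM (SD, n = 2) in control and iff-2 (F54C9.1, chromosome II), the somatic copy, had 6.81 ± 3.88 RPKM. The ratio of iff-1 to iff-2 ranged from 77.3 to 371 over the 6 libraries.

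Among the 5 cap-binding eIF4E genes, ife-3 (B0348.6, chromosome V) and ife-1 (F53A2.6, chromosome III), which act in worm germ cells, had 385 ± 26.2 and 278 ± 0.228 RPKM in control (SD, n = 2). The level of ife-3 was 1.24 to 1.45 times that of ife-1 in the 6 libraries. In WBcel235, dro-1 on the same strand shares 24.7% of the exonic bases of ife-1, and dro-1 had 259 to 931 counts per library. Ambiguous reads were left out, so ife-1 may be undercounted and the order of ife-3 and ife-1 is uncertain. The other eIF4E genes were far lower: ife-5 (Y57A10A.30, chromosome II) had 13.2 ± 0.646 RPKM, ife-2 (R04A9.4, chromosome X) 9.69 ± 3.23 RPKM and ife-4 (C05D9.5, chromosome X) 3.01 ± 0.666 RPKM. In each library ife-1 exceeded ife-5 by 12.98-fold to 29.5-fold, but these 2 genes are close in sequence, so the value of ife-5 is uncertain. In control germlines ife-5 and ife-2, neighbours in this order, were apart by little more than the SD of ife-2. The eIF4G gene ifg-1 (M110.4, chromosome II), the scaffold that binds eIF4E, had 239 ± 3.05 RPKM in control.

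Within each of eIF2, eIF2B and eIF3 the subunit genes had similar levels, unlike the eEF1B genes above. The 11 eIF3 genes, which build the platform on the small subunit, ranged from 111 RPKM for eif-3.H (C41D11.2) to 252 RPKM for eif-3.C (T23D8.4) in control, a 2.27-fold range. The 3 genes of eIF2 ranged from 165 RPKM for eif-2alpha (Y37E3.10), the subunit whose phosphorylation slows initiation, to 246 RPKM for eif-2gamma (Y39G10AR.8), the GTP-binding subunit. The 5 genes of eIF2B ranged from 40.9 RPKM for eif-2Bbeta (Y47H9C.7) to 59.0 RPKM for eif-2Bdelta (F11A3.2). In 6 of 6 libraries, every eIF2 and every eIF3 subunit was above every eIF2B subunit. The remaining genes were eif-1.A (eIF1A, 252 RPKM), eif-2A (230.3 RPKM), eif-6 (147 RPKM), eif-4A3, a helicase of the exon junction complex (69.0 RPKM), and eif-2D, an alternative carrier of tRNA to the ribosome (44.5 RPKM).

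The eIF1 gene eif-1 (chromosome II) held 1, 0, 1, 1, 1 and 0 counts in the 2 control, 2 “red-head” and 2 offspring libraries. A count of 0 allows up to 3 counts, so any level of this row was at the limit of detection in all 6 libraries. In the WBcel235 annotation 1.20% of its 582 exonic bases were shared with another gene. The cause of the low counts was not tested, since the WS220 gene model used for counting was not analysed here.

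The first comparison asked whether germlines built from sperm chromosomes alone hold the same RNAs as control germlines. With the threshold for the adjusted p at 0.05, none of the 38 factors was called (edgeR quasi-likelihood, Benjamini-Hochberg over all 8117 genes), against 0% of all genes. Over all genes 621 had an unadjusted p under 0.05, and DESeq2 called 89. Among the 38 factors the lowest adjusted p was 0.474 in the edgeR test, and 1 factor, iff-1, had an unadjusted p under 0.05. DESeq2 called 0 of the 38 factors too, with an unadjusted p under 0.05 for 1. The median log2 fold change was -0.09, compared with -0.01 for all genes, and the fitted sign was negative for 31 and positive for 7. Both “red-head” libraries lay above both controls for 2 factors (5.26%, against 18.4% of all genes) and below for 8 (21.1%, against 19.6%), so the share below was near that of all genes. The lower values came mainly from 1 library: relative to the control mean, the median factor was -0.20 in “red-head” replicate 1 and -0.02 in replicate 2 on the log2 scale. Without replicate 1 the fitted signs were 20 negative and 18 positive.

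The second comparison asked the same of the F2 generation. Again 0 of the 38 factors were called, against 0.123% of all genes, with a lowest adjusted p of 0.999 (edgeR quasi-likelihood, Benjamini-Hochberg). An unadjusted p under 0.05 was found for 4: eif-3.I, eif-3.J, eif-6 and ife-4. Over all 8117 genes it was found for 105. DESeq2 called 0 factors among 17 genes in all and gave 2 factors with an unadjusted p under 0.05. The median log2 fold change was 0.15, compared with 0.00 for all genes, and 34 factors had a positive and 4 a negative fitted change. Both offspring libraries exceeded both controls for 24 of 38 factors (63.2%, against 16.4% of all genes) and were below for 1 (2.63%, against 16.6%). Among the 20 germline markers they exceeded both controls for 8 (40%) and were below for 0. Relative to the control mean the median factor was 0.12 and 0.17 in the offspring libraries, and 0.06 and -0.06 in the control libraries themselves. With library size as the only scaling, the count above dropped to 13 (34.2%, against 8.49% of all genes) and the median to 0.071. That scaling moved the median of all genes by -0.079 on the log2 scale.

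The 2 generations were then set against each other. None of the 38 factors was called, against 0.0123% of all genes, and the lowest adjusted p was 0.321 (edgeR quasi-likelihood, Benjamini-Hochberg). Unadjusted p-values under 0.05 were found for 10: eef-1B.1, eif-2beta, eif-3.C, eif-3.E, eif-3.F, eif-3.J, eif-3.K, eif-3.L, eif-6 and iff-1, of which 6 are subunits of eIF3. Over all 8117 genes there were 825. DESeq2 called 1 factor (iff-1) among 128 genes in all, and gave 11 factors with an unadjusted p under 0.05. The median log2 fold change of “red-head” against offspring germlines was -0.27, compared with -0.01 for all genes, with 36 negative and 2 positive fitted changes. Both “red-head” libraries lay below both offspring libraries for 23 of 38 factors (60.5%, against 20.4% of all genes) and above for 1 (2.63%, against 17.5%). Among the 20 germline markers they lay below for 9 (45%) and above for 3. With library size only, 14 lay below (36.8%, against 12.4% of all genes), and that scaling raised the median of all genes by 0.11. The comparisons share libraries, so these 3 sets of counts are not independent.

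**Figure D2:**
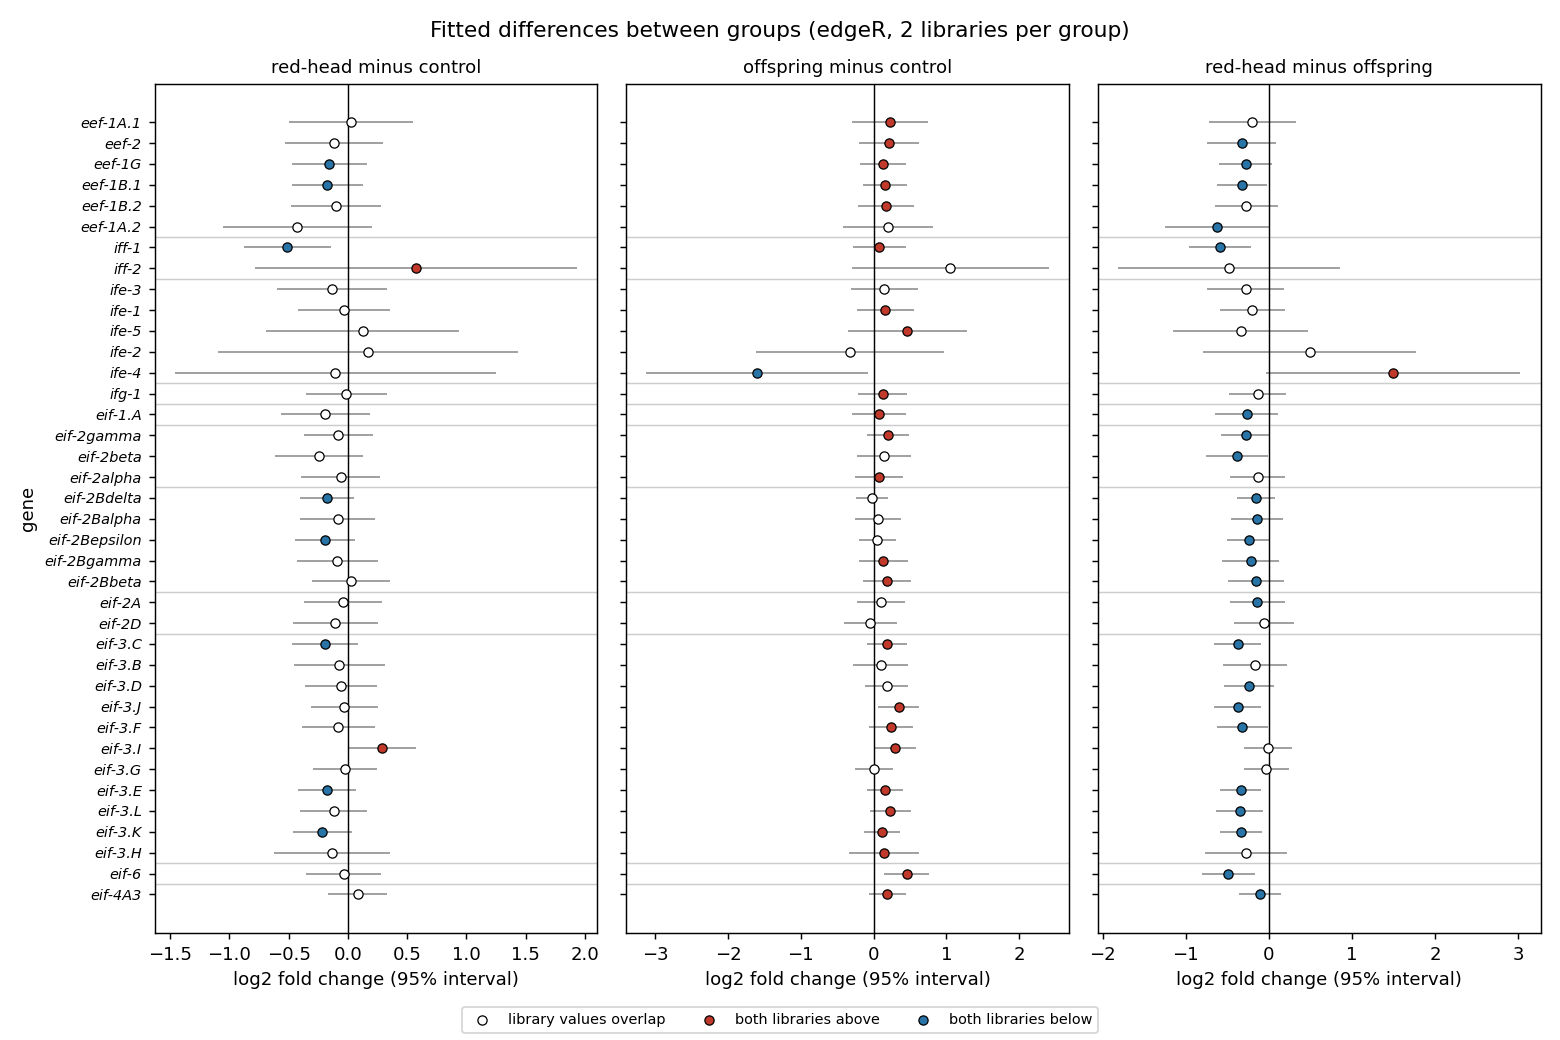
Fitted log2 fold change of the 38 tested genes in the 3 comparisons, with 95% intervals, from 2 libraries per group. Filled points mark genes whose library values do not overlap between the groups, red for both above and blue for both below. Offspring germlines lay above control for 24 genes and “red-head” germlines below offspring for 23, while most intervals cross 0. The horizontal scales differ between panels.

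The intervals show which sizes of change remain possible. The 95% interval lay within a 2-fold change in either direction for 34 of 38 factors in “red-head” against control, for 34 in offspring against control and for 33 in “red-head” against offspring. It lay within 1.5-fold for 29, 27 and 18 of them. The factors with wider intervals were the scarce copies eef-1A.2, ife-2, ife-4, ife-5 and iff-2.

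The eIF5A gene iff-1 had the largest fitted difference of “red-head” from control germlines after the scarce iff-2. It had 996 and 1016 CPM in the controls, 599.7 and 817 in “red-head” libraries and 1073 and 1053 in offspring. Both “red-head” libraries lay below the other 4, and the 2 “red-head” libraries differed from each other more than the control or offspring libraries did. “Red-head” germlines had log2 fold changes of -0.51 (standard error 0.16) against control and -0.59 (standard error 0.16) against offspring, with adjusted p = 0.474 and 0.321 (edgeR quasi-likelihood, Benjamini-Hochberg). The call depended on the test: with DESeq2 the adjusted p was 0.0982 against control and 0.0163 against offspring, and edgeR without a filter on low counts gave 0.00175 and 8.31e-05. Leaving out single libraries gave log2 fold changes that ranged from -0.74 to -0.29 against control and from -0.82 to -0.37 against offspring. The transcript of iff-1 is the shortest of the 38 at 674 nucleotides. Across the 7594 protein-coding genes the log2 fold change of “red-head” against control had a Spearman correlation with transcript length of 0.26 (Pearson 0.098). Across the 38 factors it was -0.07 (Pearson -0.045). These values are a description over genes that share the same 4 libraries. A noncoding RNA on the opposite strand covers 20.5% of the exonic bases of iff-1 in WBcel235, and strand use in counting is not given in the sources used here, so reads of the 2 cannot be told apart there.

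The eIF5A protein carries hypusine, made from lysine by 2 enzymes on the list of 32 other translation genes. The gene for the second enzyme, dohh-1, had 47.7 and 39.2 CPM in the controls, 30.98 and 20.1 in “red-head” libraries and 49.2 and 35.9 in offspring. Its log2 fold change in “red-head” germlines was -0.74 against control (adjusted p = 0.542, edgeR quasi-likelihood, Benjamini-Hochberg). That was the lowest value among the 27 tested genes of the list, whose median was -0.02. A link to iff-1 was not tested. The gene for the first, dhps-1, had 43.7 and 37.1 CPM in control and 38.9 and 53.1 CPM in “red-head” libraries, which overlapped. The somatic copy iff-2 had 9.68 and 4.12 CPM in the controls, 10.7 and 10.03 in “red-head” libraries and 20.9 and 7.76 in offspring. Its log2 fold change in “red-head” germlines was 0.57 with an interval from -0.78 to 1.93, so neither direction was resolved.

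The anti-joining factor gene eif-6 (C47B2.5, chromosome I) had its highest library values in offspring germlines, though edgeR with the low-count filter did not call it. It had 154 and 141 CPM in the controls, 126 and 164 in “red-head” libraries and 199 and 206 in offspring. Both offspring libraries lay above the other 4, while control and “red-head” libraries overlapped (16.4% of all genes had both offspring values above both controls). The log2 fold change was 0.45 (standard error 0.13) in offspring against control and -0.49 (standard error 0.14) in “red-head” against offspring, with adjusted p = 0.999 and 0.338 (edgeR quasi-likelihood, Benjamini-Hochberg). Without a filter on low counts the second of these had an adjusted p of 0.0193 in edgeR, and DESeq2 gave 0.208.

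Among eIF3 subunits, 11 of 11 had a positive fitted change in offspring against control (median 0.18 on the log2 scale) and 11 of 11 a negative one in “red-head” against offspring (median -0.32), with 8 (against 16.4% of all genes) and 7 (against 20.4%) of them free of overlap. The loosely bound subunit gene eif-3.J (Y40B1B.5) had 170.1 and 155 CPM in the controls, 144 and 176 in “red-head” libraries and 205 and 208 in offspring. Like eif-6, it was highest in both offspring libraries, at 0.35 (standard error 0.12) above control on the log2 scale. The core subunit gene eif-3.C had 784 and 735, 639 and 689.8, and 809 and 917 CPM in the same order. Its groups did not overlap in any of the 3 comparisons, with “red-head” libraries lowest and offspring libraries highest. The gene eif-3.I (Y74C10AR.1) took another course, with 199 and 189 CPM in the controls, 216 and 259.7 in “red-head” libraries and 223 and 254 in offspring. Both later groups lay above control, and it was 1 of 2 factors above control in both “red-head” libraries, the other being iff-2. The gene eif-3.K (T16G1.11) had 116 and 106 CPM in control and 91.4 and 101 CPM in “red-head” libraries, which did not overlap, and 124 and 117 CPM in offspring libraries. At the ends of the level range, eif-3.H had 161 and 165 CPM in the controls, 115.04 and 186 in “red-head” libraries and 168 and 193 in offspring, so its 2 “red-head” libraries lay on either side of control.

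**Figure D3:**
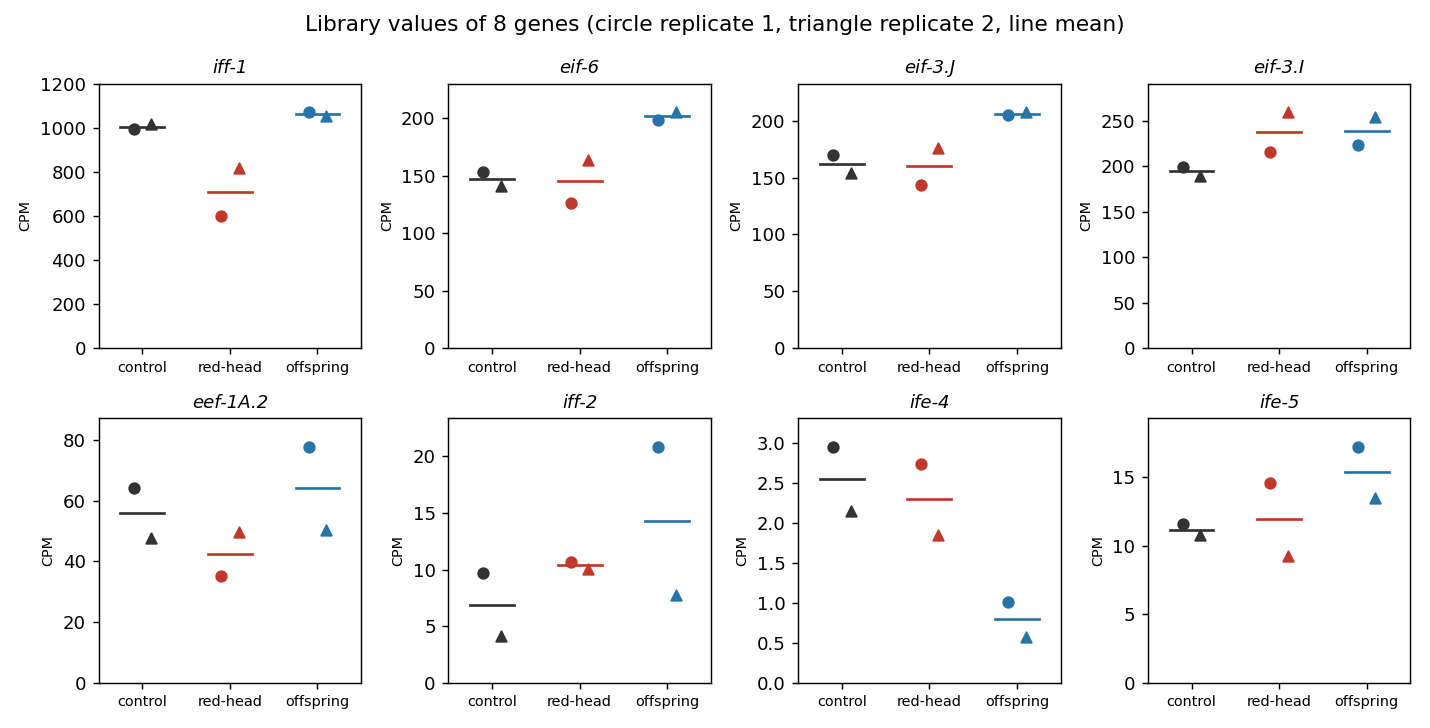
Library values of 8 genes in CPM, by group, with axes starting at 0. Circles are replicate 1, triangles replicate 2 and lines the group mean. The 2 “red-head” values of iff-1 (599.7 and 817) lie below all others, eif-6 and eif-3.J are highest in both offspring libraries, and the 4 genes of the lower row have low or scattered values.

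None of the elongation factors was called, and both “red-head” libraries lay below both controls for 2 of the 6, eef-1B.1 and eef-1G, against 19.6% of all genes. The eEF1A gene eef-1A.1 had 16139.7 and 14735 CPM in the controls, 13892 and 17555 in “red-head” libraries and 16560.3 and 19534 in offspring. Its “red-head” libraries enclosed both controls. The translocase gene eef-2 had 7595 and 7085 CPM in the controls, 6278 and 7270.2 in “red-head” libraries and 8036 and 8977 in offspring, with both offspring libraries highest. The eEF1B gene eef-1G was likewise highest in both offspring libraries, at 2784 and 2732, 2363 and 2589, and 2937 and 3073 CPM. The gene eef-1B.1 had 1001 CPM in both controls, 815 and 962 in “red-head” libraries and 1065 and 1164 in offspring, without overlap in any comparison. For eef-1B.2 the values were 668 and 691, 533 and 736, and 725 and 802 CPM, so “red-head” overlapped both other groups. Log2 fold changes of the 6 elongation genes ranged from -0.43 to 0.03 in “red-head” against control and from 0.12 to 0.23 in offspring against control. The lowest was that of eef-1A.2, with 64.1 and 47.9 CPM in the controls, 35.3 and 49.8 in “red-head” libraries and 77.8 and 50.3 in offspring, where “red-head” and control overlapped.

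The more abundant eIF4E genes, ife-1 and ife-3, did not separate “red-head” from control. The gene ife-1 had 277 CPM in both controls, 223 and 322 in “red-head” libraries and 306 and 315 in offspring, and ife-3 had 450.1 and 409, 310.5 and 478, and 442 and 509.7 CPM. For both, “red-head” replicate 1 was the lowest of the 6 libraries. The scaffold gene ifg-1 had 1123 and 1102, 975 and 1233, and 1156 and 1271 CPM, with the same library lowest. The scarce ife-4 had 2.96 and 2.16 CPM in the controls, 2.74 and 1.86 in “red-head” libraries and 1.01 and 0.575 in offspring, which were the lowest. Its log2 fold change in offspring against control was -1.60, the largest in size among the 38, but it rested on 7 and 2 counts in the offspring libraries and its interval ran from -3.12 to -0.08. For ife-5 the values were 11.6 and 10.8, 14.6 and 9.29, and 17.2 and 13.5 CPM, and for ife-2 they were 6.18 and 10.003, 12.9 and 4.46, and 6.81 and 6.04 CPM. For ife-5 both offspring libraries exceeded both controls and overlapped “red-head”, and the groups overlapped for ife-2.

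The eIF2 and eIF2B genes differed by small amounts. Log2 fold changes in “red-head” against control ranged from -0.24 to -0.06 for the 3 eIF2 genes and from -0.19 to 0.02 for the 5 eIF2B genes, and against offspring from -0.38 to -0.14 and from -0.24 to -0.15. For all 5 eIF2B genes both “red-head” values lay below both offspring values (against 20.4% of all genes), though none had an unadjusted p under 0.05. The gene eif-2gamma had 436 and 390.3 CPM in the controls, 357 and 426 in “red-head” libraries and 489 and 460.3 in offspring, highest in the last. The gene eif-2alpha had 317 and 296, 253 and 337, and 326 and 320.3 CPM, with “red-head” on either side of control. In eIF2B, eif-2Bdelta had 128 and 127, 108 and 119, and 127 and 124 CPM, lowest in “red-head” germlines, and eif-2Bbeta had 49.9 and 45.5, 50.9 and 45.7, and 52.4 and 55.8 CPM, where “red-head” and control overlapped.

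Other genes of translation were set beside the factors. The 79 tested genes for cytosolic ribosomal proteins differed between “red-head” and control by a median of -0.42 on the log2 scale, with 65 lower (82.3%, against 19.6% of all genes) and 0 higher in both libraries, 0.16 in offspring against control and -0.57 in “red-head” against offspring. For the factors these medians were -0.09, 0.15 and -0.27. The direction was shared, but the 2 “red-head” libraries stood at -0.41 and -0.38 for ribosomal protein genes and at -0.20 and -0.02 for the factors. The 31 aminoacyl-tRNA synthetase genes, whose enzymes charge tRNAs, had medians of -0.04, 0.12 and -0.14. Of the list of 32 other translation genes (helicases, release factors, kinases and mitochondrial factors), 27 were matched and tested, 0 were called in either direction in any comparison by edgeR's quasi-likelihood test, and their medians were -0.02, 0.08 and -0.15. An unadjusted p under 0.05 was found for 3, 1 and 7 of these 27 genes. Both offspring values exceeded both controls for 51.6% of synthetase, 49.4% of ribosomal protein and 25.9% of other translation genes, against 16.4% of all genes. Both “red-head” values lay below both offspring values for 45.2%, 86.1% and 29.6% of them, against 20.4%. Higher shares than over all genes were therefore not particular to the factors.

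**Figure D4:**
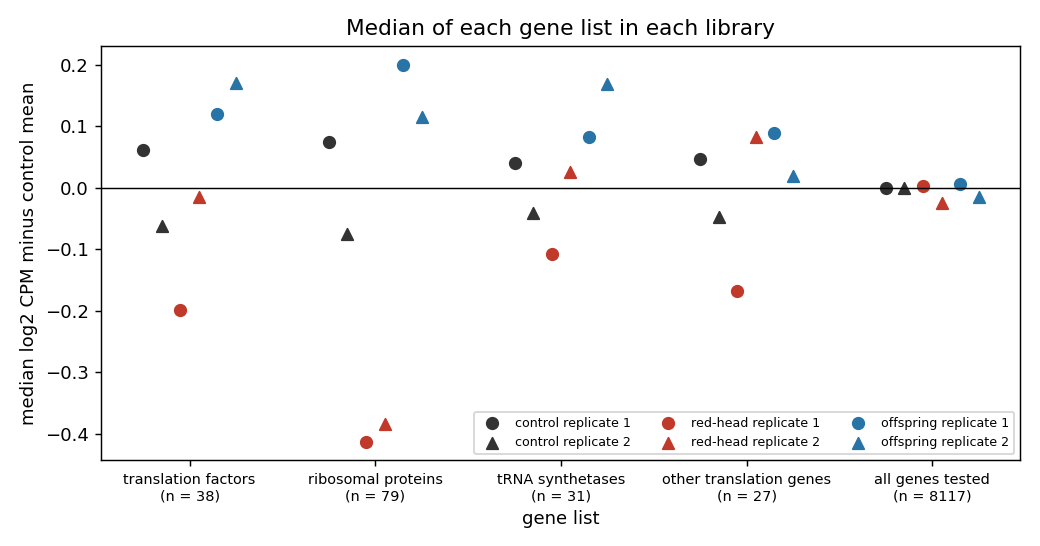
Median over each gene list of the log2 CPM of a library minus the control mean, for the 38 factors, 79 ribosomal protein genes, 31 synthetase genes, 27 other translation genes and all 8117 genes tested. Circles are replicate 1 and triangles replicate 2. Ribosomal protein genes stand at -0.41 and -0.38 in the “red-head” libraries and the factors at -0.20 and -0.02, while both offspring libraries lie above 0 in each of the 4 lists.

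Library names carry tags whose meaning is not given in the sources used here. Offspring replicate 1 shares its tag with control replicate 1, and between these 2 libraries the median factor differed by 0.080 on the log2 scale, with 31 higher and 7 lower in offspring. “Red-head” replicate 2 shares its tag with offspring replicate 2, and between them the median was -0.14, with 7 higher and 31 lower in “red-head”. Both keep the direction of the pooled medians at a smaller size, with 1 library per group and no test. Control and “red-head” libraries never share a tag, so tag and group cannot be told apart in that comparison.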

How the data were processed

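Per the labels and the study's methods, total RNA of pooled distal gonad arms was depleted of ribosomal RNA and sequenced as 50 bp single-end reads, which the authors aligned with TopHat2 to the WS220 transcriptome. The values used are the whole-number HTSeq counts per gene that the authors deposited, not normalized. Reads assigned to no gene (10.7% to 15.2% of each table) and ambiguous reads (1.59% to 2.15%) were left out of library sizes and tests. A deposited table of the authors' DESeq2 comparisons holds mean levels, log2 fold changes and adjusted p-values. It was not used.

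Of the 45461 gene rows, 44115 matched a gene of Ensembl release 115 (WBcel235), which gave symbol, biotype, chromosome and length. None of its coordinates are given, since the builds differ. Exonic bases of 16 of the 39 genes were shared with another gene there, and counts on overlapping, antisense or near-identical genes may be split. Copies at risk are eef-1A.1 and eef-1A.2, ife-1 and ife-5, and eif-4A3 with its relatives.

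edgeR 4.0.16 was run under R 4.3.3. Its filterByExpr left 8117 genes, TMM gave the scaling, and 1 glmQLFit model of the 6 libraries served all 3 contrasts (glmQLFTest, threshold 0.05 after Benjamini-Hochberg adjustment over all genes tested). Standard errors were derived from the fold change and its F statistic, and intervals cover 95%. CPM and RPKM use TMM-scaled library sizes. The test was checked on 5 simulated data sets with planted changes of at least 2-fold, which does not cover smaller changes. The alternatives were DESeq2 1.42.0, a fit of only the 4 libraries of a comparison, scaling by RLE or by library size alone, all genes with a count, a minimum of 10 counts per library, protein-coding genes only, a replicate block, an adjusted p of 0.1, libraries that share a tag, summed exon length, and each library left out in turn. Comparisons of single libraries carry counting error that was greatest at 2721055 counts.

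The genes and lists were chosen with earlier results of these data known, and a list is described by counts and medians beside those of all genes. Library values are given for factors past the threshold, for up to 3 per direction and comparison with the largest fold change among those without overlap, for eef-1A, eef-1B, ife and iff copies with ifg-1, eef-1G and eef-2, and for the highest and lowest subunit of eIF2, eIF2B and eIF3. The correlation of fold change with length was added after seeing the data.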

Additional observations from a re-analysis of the deposited data

How the results depend on the processing

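No factor was called in any comparison when the fit held only the 4 libraries of a comparison, with RLE or library-size scaling, with at least 10 counts in every library, protein-coding genes only, an adjusted p of 0.1 or any library left out. Without a filter on low counts 1 factor was called in “red-head” against control (iff-1) and 2 in “red-head” against offspring (iff-1 and eif-6), and DESeq2 called 1 in the latter (iff-1); the cause was not tested. The same choices moved the calls over all genes in the 3 comparisons, in the order used above, from 0, 10 and 1 to 355, 68 and 383 without a filter and to 89, 17 and 128 with DESeq2. With each library left out they ranged from 0 to 54, from 4 to 14 and from 0 to 69.

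With library size only, the median of offspring against control was 0.071, the factors without overlap were 13 above and 2 below in that comparison, and 14 of them lay below in “red-head” against offspring. Between libraries that share a tag the medians were 0.080 (offspring against control) and -0.14 (“red-head” against offspring). Without a filter 1 factor lay above control in both “red-head” libraries. With at least 10 counts in every library, 0 lay below control in both offspring libraries and 0 above both offspring libraries in “red-head”, since ife-4 was no longer tested. With each library left out, the medians ranged from -0.20 to -0.01 in “red-head” against control, from 0.094 to 0.20 in offspring against control and from -0.35 to -0.16 in “red-head” against offspring. Without “red-head” replicate 1 the fitted changes of ife-1, ife-3 and eif-3.H against offspring turned positive, with ranges over the libraries left out of -0.47 to 0.068, -0.61 to 0.021 and -0.64 to 0.067. Where 1 library was left in a group, it was assumed to vary like the other groups. A turn was counted where the fitted change exceeded its standard error.

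Same-numbered libraries had correlated deviations of -0.091 (control and “red-head”), 0.39 (control and offspring) and 0.034 (“red-head” and offspring), so the numbers were not taken to pair libraries. With a replicate block 0 factors were called in each comparison, and 7, 13 and 7 of all genes. Depth limits the scarce copies most: ife-4 had between 2 and 33 counts per library.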

Other observations

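Some factors carry symbols outside the prefixes used. The eIF3a gene egl-45 (C27D11.1, chromosome III) had 934 and 873 CPM in the controls, 826 and 992 in “red-head” libraries and 982 and 1118 in offspring, and the eIF3m gene cif-1 (K08F11.3, chromosome IV) had 292 and 258, 259 and 272, and 315 and 331 CPM. Both offspring libraries were highest for cif-1 and “red-head” and control overlapped for both genes, with log2 fold changes of 0.22 and 0.23 in offspring against control. The eIF4A helicase gene inf-1 (F57B9.6, chromosome III) had 973 and 858 CPM in the controls, 734 and 778 in “red-head” libraries and 1024 and 1065 in offspring. Its groups did not overlap in any comparison, and its log2 fold change in “red-head” germlines was -0.28 against control and -0.47 against offspring, with adjusted p = 0.648 and 0.298 (edgeR quasi-likelihood, Benjamini-Hochberg). The release factor gene erfa-1, which ends translation at stop codons, had the same order of groups, with log2 fold changes of -0.30 and -0.48. The choice of these genes was made with their values in view, and none was called.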
